A study of Arabidopsis thaliana with 38 samples.

Results

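The transcripts of 10 Arabidopsis thaliana genes that act in mitosis and cytokinesis were followed in RNA from plants carrying histone H3 with serine 28 exchanged for alanine (S28A). The genes were taken from the tables by locus identifier. They were the B-type cyclin-dependent kinases CDKB1;1 (AT3G54180), CDKB2;1 (AT1G76540) and CDKB2;2 (AT1G20930), the B-type cyclins CYCB1;1 (AT4G37490), CYCB1;2 (AT5G06150) and CYCB1;4 (AT2G26760), the anaphase activators CDC20.1 (AT4G33270) and CDC20.2 (AT4G33260), and the cytokinesis genes KNOLLE (AT1G08560) and HINKEL (AT1G18370). All 10 were among the 27416 genes of both deposited count tables, and all 10 passed the filter on low counts in every test.

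Poly(A)-selected RNA was sequenced from 4 genotypes with 2 libraries each. H3.1S28A, which carries the exchange in the replication-coupled form of H3, was set against H3.1. H3.3S28A, which carries it in the replication-independent form, was set against H3.3. The tables held 1 such pair each. The labels give the source as seedlings of 2 weeks, whereas their extraction text names closed buds. They do not give the ecotype, the promoter of an introduced histone gene, how many endogenous histone genes remained, or whether a genotype was 1 line or several. They do not state whether the libraries of a genotype came from separate batches of plants, so p-values measure only the spread between these libraries. Counts per gene cannot show the serine-to-alanine exchange itself. The comparisons ask how the exchange in each form of H3 affects transcript levels.

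In plants, entry into mitosis is driven by cyclin-dependent kinases bound to B-type cyclins, and their genes are transcribed in a burst late in the cell cycle. The anaphase-promoting complex, switched on by CDC20, then marks B-type cyclins for destruction. Daughter cells are separated by a new wall, the cell plate, which is laid down by vesicle fusion inside a microtubule array called the phragmoplast. Such transcripts come from dividing cells, which in a seedling lie mostly in the shoot apex, young leaves, stomatal precursors and root tips. In RNA of whole tissue, fewer dividing cells and less of a transcript per dividing cell cannot be told apart.

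Totals ran from 12865999 to 24449528 counts per library, and the 10 genes together took 1635 to 7949 of them. The lowest count of any of the 10 was 60, for CYCB1;1 in H3.3S28A replicate 2. Levels are given as CPM (counts scaled to a common library total, here with the TMM factors of all 8 libraries). They are not compared between genes because transcript lengths were not used here. Single libraries stood apart from their replicates in both mutant genotypes. H3.3S28A replicate 2 had 0.858% of its counts on chloroplast genes, against 0.0520% to 0.143% in the other libraries, and H3.1S28A replicate 1 had a sum of 66.1 CPM over 6 floral organ markers, against 10.5 CPM in its replicate. Summed over the 10 genes, levels scaled to the library total were 258 and 334 CPM in H3.1S28A and 363 and 347 CPM in H3.1. The same sum was 141 and 127 CPM in H3.3S28A and 263 and 293 CPM in H3.3. Both mutant genotypes lay below their own control in this sum, and the gap was wider in the H3.3 pair.

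**Figure D1:**
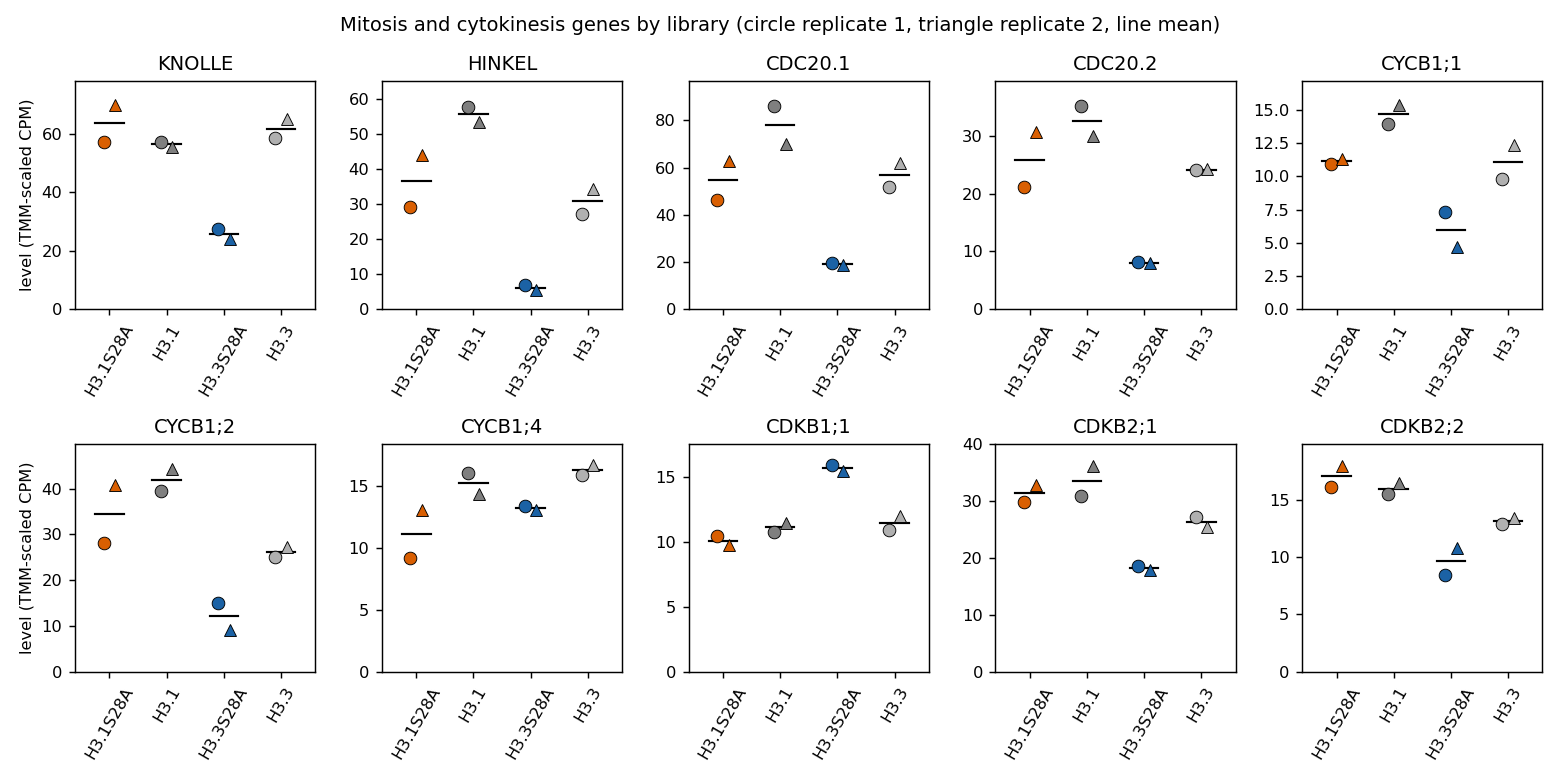
TMM-scaled CPM of each of the 10 genes (y axis, from 0) in the 8 libraries, by genotype (x axis), with the circle for replicate 1, the triangle for replicate 2 and the line for their mean. HINKEL lay at 6.80 and 5.45 CPM in H3.3S28A, against 27.2 and 34.3 CPM in H3.3, while CDKB1;1 is the 1 gene whose H3.3S28A libraries lay above all the others.

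In H3.3S28A, 8 of the 10 genes fell against H3.3, CDKB1;1 rose, and CYCB1;4 did not pass the test (edgeR quasi-likelihood test, adjusted p under 0.05 over all 19729 genes tested). Across all genes tested, 29.7% were lower and 28.8% were higher by the same rule, 58.4% in all. The falls ran from 1.33-fold for CDKB2;2 to 4.79-fold for HINKEL. The median log2 fold change of the 10 genes was -0.93, against 0.01 for all genes tested. The H3.3S28A and H3.3 libraries did not overlap for any of the 10 genes, 9 of which were lower and 1 higher. Among all genes tested, 42.2% were lower and 37.3% higher without overlap. Without H3.3S28A replicate 2, the same 9 of the 10 genes were called in the same directions.

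The kinases differed in direction. CDKB1;1, which is active from S phase into mitosis and is known for its part in the divisions of the stomatal lineage, had 16.0 and 15.5 CPM in H3.3S28A, against 10.96 and 12.03 CPM in H3.3. Both H3.3S28A libraries were higher than both H3.3 libraries, and the gene rose 1.42-fold (log2 fold change 0.50, SE 0.14, edgeR adjusted p = 0.00802). Without H3.3 replicate 1 its log2 fold change was 0.40 and the edgeR adjusted p 0.0997, and with the trend over gene span removed they were 0.26 and 0.121. CDKB2;1, a mitotic kinase needed for normal division in the shoot meristem, had 18.5 and 17.9 CPM in H3.3S28A, against 27.1 and 25.5 CPM in H3.3. Both H3.3S28A libraries were the lower ones, and the replicates were close in each genotype. It fell 1.39-fold (log2 fold change -0.48, SE 0.11, edgeR adjusted p = 0.00363). Its close relative CDKB2;2 had 8.49 and 10.8 CPM in H3.3S28A, against 12.9 and 13.4 CPM in H3.3. The groups were apart, but the H3.3S28A libraries were less alike than those of H3.3. It fell 1.33-fold, at the threshold (log2 fold change -0.41, SE 0.16, edgeR adjusted p = 0.0499). DESeq2 did not call it (adjusted p = 0.151), and neither did edgeR without H3.3 replicate 1 (adjusted p = 0.123), H3.3 replicate 2 (adjusted p = 0.190) or H3.3S28A replicate 1 (adjusted p = 0.299).

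The B-type cyclins bind these kinases and carry them into mitosis. CYCB1;2 had 15.03 and 9.11 CPM in H3.3S28A, against 25.2 and 27.2 CPM in H3.3. Replicate 2 of H3.3S28A was the lowest of the 8 libraries. This cyclin fell 2.06-fold (log2 fold change -1.04, SE 0.19, edgeR adjusted p = 6.6e-04). CYCB1;1, a cyclin gene that is also known to be induced by DNA damage in plants, had 7.31 and 4.67 CPM in H3.3S28A, against 9.84 and 12.3 CPM in H3.3. The groups did not overlap, and the gap between the nearest libraries was about as wide as that between replicates. It fell 1.76-fold (log2 fold change -0.82, SE 0.23, edgeR adjusted p = 0.0102). Without H3.3 replicate 2, its log2 fold change was -0.67 and the edgeR adjusted p 0.0906. For both of these cyclins the lower H3.3S28A library was the one with more chloroplast counts, and without it the log2 fold changes were -0.75 for CYCB1;2 and -0.55 for CYCB1;1, both still called by edgeR (adjusted p = 2.1e-06 and 0.0168). CYCB1;4 had 13.3 and 13.1 CPM in H3.3S28A, against 15.9 and 16.6 CPM in H3.3. The H3.3S28A libraries were the lower ones, yet the difference did not pass (log2 fold change -0.25, SE 0.13, edgeR adjusted p = 0.118).

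CDC20.1 and CDC20.2 encode activators of the anaphase-promoting complex. They are neighbours on chromosome 4 and close copies, so reads may have been split between them in ways the counting settings, not given in the sources used here, would decide. CDC20.1 had 19.6 and 18.8 CPM in H3.3S28A, against 51.8 and 62.1 CPM in H3.3. CDC20.2 had 8.18 and 7.94 CPM in H3.3S28A, against 24.1 and 24.3 CPM in H3.3. For both genes the replicates of H3.3S28A were near each other and far under the H3.3 libraries. CDC20.1 fell 2.86-fold (log2 fold change -1.52, SE 0.12, edgeR adjusted p = 1.6e-06) and CDC20.2 fell 2.89-fold (log2 fold change -1.53, SE 0.13, edgeR adjusted p = 2.6e-06). The share of CDC20.1 in the counts of both genes does not depend on library scaling, and it averaged 70.4% ± 0.230 in H3.3S28A and 70.1% ± 2.56 in H3.3 (SD, n = 2 each). In the library with the fewest counts, H3.3S28A replicate 2, the share was 70.3%, with a 95% Wilson interval of 65.2% to 74.9% that covers counting error only. In the other pair it averaged 67.9% ± 1.04 in H3.1S28A and 70.4% ± 0.772 in H3.1 (SD, n = 2 each).

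KNOLLE is the syntaxin that drives fusion of vesicles into the growing cell plate. It had 27.3 and 24.1 CPM in H3.3S28A, against 58.4 and 64.9 CPM in H3.3. Both H3.3S28A libraries were far below both H3.3 libraries. KNOLLE fell 2.31-fold (log2 fold change -1.21, SE 0.11, edgeR adjusted p = 4.1e-06). HINKEL is a kinesin that turns on a protein kinase cascade at the phragmoplast, so that the cell plate can expand. It had 6.80 and 5.45 CPM in H3.3S28A, from 133 and 70 counts, against 27.2 and 34.3 CPM in H3.3, from 536 and 662 counts. The other 6 libraries all had at least 27.2 CPM, far above the H3.3S28A libraries. HINKEL fell 4.79-fold, the furthest of the 10 (log2 fold change -2.26, SE 0.16, edgeR adjusted p = 1.0e-06), and 1.07% of all genes tested had a lower log2 fold change. With the trend over gene span removed, its log2 fold change was -1.498. KNOLLE, HINKEL, CDC20.1, CDC20.2, CYCB1;2 and CDKB2;1 kept their call in the H3.3 pair under all 11 alternative settings, leaving out each library among them.

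**Figure D2:**
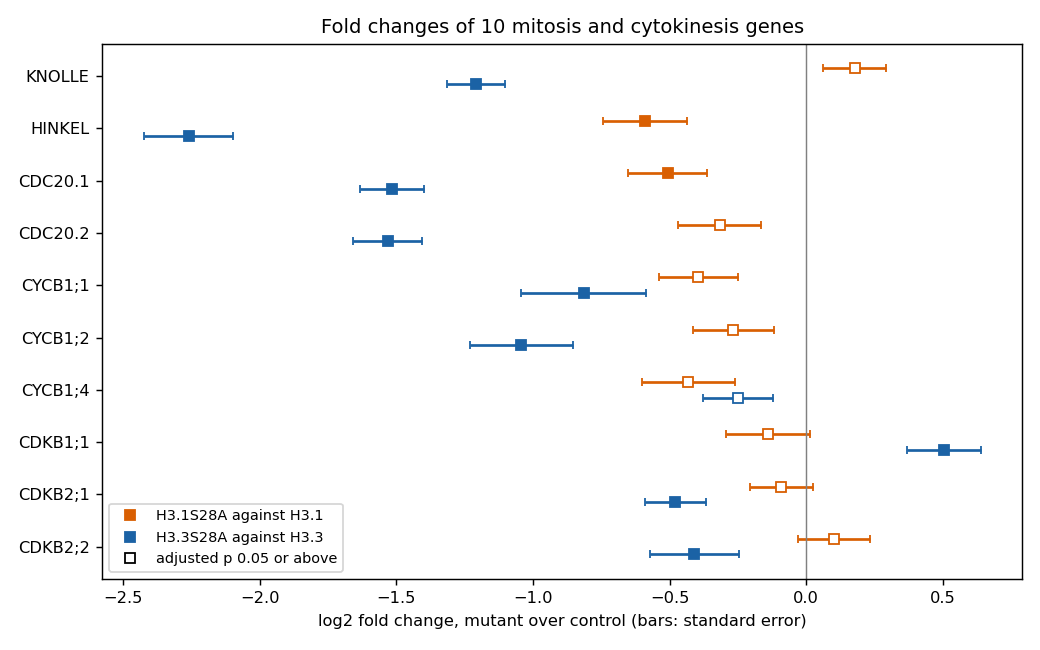
Log2 fold changes of the 10 genes (x axis, mutant over control, bars for the standard error) in H3.1S28A against H3.1 and in H3.3S28A against H3.3, with open symbols for an adjusted p of 0.05 or above. HINKEL lay lowest in both pairs, at -0.59 and -2.26, and CDKB1;1 lay to the right of 0 in the H3.3 pair alone.

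In H3.1S28A, HINKEL and CDC20.1 fell against H3.1 and the other 8 genes did not pass the test (edgeR quasi-likelihood test, adjusted p under 0.05 over 18974 genes). No gene of the 10 rose, and none was higher at an unadjusted p under 0.05. DESeq2 made the same number of calls, 2 lower and 0 higher. Across all genes tested, 5.26% were lower and 8.23% were higher, 13.5% in all. The median log2 fold change of the 10 genes was -0.29, against -0.01 for all genes tested, and 8 of the 10 values lay below 0. The libraries did not overlap for 5 of the 10 genes, all lower in H3.1S28A, namely HINKEL, CDC20.1, CYCB1;1, CYCB1;4 and CDKB1;1. Among all genes tested, 29.1% were lower and 28.8% higher without overlap.

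HINKEL had 29.1 and 44.1 CPM in H3.1S28A, against 57.7 and 53.5 CPM in H3.1. Both H3.1S28A libraries were lower, and they differed from each other more than the H3.1 libraries did. HINKEL fell 1.505-fold (log2 fold change -0.59, SE 0.15, edgeR adjusted p = 0.0235). CDC20.1 had 46.2 and 62.9 CPM in H3.1S28A, against 86.2 and 69.8 CPM in H3.1. The upper H3.1S28A library lay nearer to the lower H3.1 library than to its own replicate. CDC20.1 fell 1.42-fold (log2 fold change -0.51, SE 0.15, edgeR adjusted p = 0.0354). Both calls rested on single libraries. For HINKEL the edgeR adjusted p was 0.106 without H3.1 replicate 1, 0.0672 without H3.1 replicate 2 and 0.101 without H3.1S28A replicate 1. For CDC20.1 it was 0.254 without H3.1 replicate 1 and 0.135 without H3.1S28A replicate 1. In H3.1S28A, replicate 1 was the lower library for 9 of the 10 genes, all but CDKB1;1, and it was also the library with the higher sum of floral organ markers. The part of that difference in these calls was not tested. With this library alone standing for H3.1S28A, 5 of the 10 genes fell, adding CDC20.2 (log2 fold change -0.62), CYCB1;2 (-0.57) and CYCB1;4 (-0.72). In that fit 7.83% of all genes tested were lower, against 5.26% with both libraries.

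Of the genes that did not pass in the H3.1 pair, KNOLLE had 57.1 and 69.9 CPM in H3.1S28A, against 57.3 and 55.6 CPM in H3.1. One library of H3.1S28A was level with H3.1 and the other above it (log2 fold change 0.18, SE 0.12, edgeR adjusted p = 0.346). CYCB1;1 had 10.9 and 11.3 CPM in H3.1S28A, against 14.0 and 15.4 CPM in H3.1, with replicates close together and groups apart (log2 fold change -0.39, SE 0.14, edgeR adjusted p = 0.0861). CYCB1;4 had 9.17 and 13.0 CPM in H3.1S28A, against 16.0 and 14.4 CPM in H3.1 (log2 fold change -0.43, SE 0.17, edgeR adjusted p = 0.111). Among the rest, CDC20.2 with 21.1 and 30.7 CPM in H3.1S28A against 35.3 and 30.1 CPM in H3.1, and CYCB1;2 with 28.1 and 40.9 CPM against 39.5 and 44.4 CPM, overlapped between the genotypes. The kinases moved least. CDKB1;1 had 10.4 and 9.75 CPM in H3.1S28A against 10.8 and 11.5 CPM in H3.1, CDKB2;1 had 29.8 and 32.8 CPM against 30.9 and 36.2 CPM, and CDKB2;2 had 16.2 and 18.0 CPM against 15.5 and 16.5 CPM. Their log2 fold changes were -0.14, -0.09 and 0.10.

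The 2 pairs were compared by the log2 fold change of the H3.1 pair minus that of the H3.3 pair, fitted on all 8 libraries. A difference between the forms of H3 cannot be told apart here from other differences between the plant lines of the pairs. A positive value means that the gene was lower in H3.3S28A against H3.3 than in H3.1S28A against H3.1. By the edgeR quasi-likelihood test, 6 of the 10 genes had a positive difference and CDKB1;1 a negative one at an adjusted p under 0.05. Across the 20052 genes tested, 24.4% were positive and 14.6% negative, 39% in all. The differences were largest for the cytokinesis and anaphase genes. HINKEL differed by 1.70 (SE 0.27, edgeR adjusted p = 2.9e-04), KNOLLE by 1.41 (SE 0.16, edgeR adjusted p = 2.7e-05), CDC20.2 by 1.24 (SE 0.23, edgeR adjusted p = 9.6e-04) and CDC20.1 by 1.04 (SE 0.21, edgeR adjusted p = 0.00202). These 4 genes were called under all 14 alternatives. CYCB1;2 differed by 0.80 (SE 0.28, edgeR adjusted p = 0.0379) and was called under 6 of 14, losing its call without any 1 library but replicate 1 of either mutant (edgeR adjusted p up to 0.170). CDKB2;2 differed by 0.54 (SE 0.20, edgeR adjusted p = 0.0497) and was called under 4 of 14, losing the call by DESeq2 (adjusted p = 0.174) and without any 1 library but H3.1S28A replicate 1 or H3.3S28A replicate 2 (edgeR adjusted p up to 0.2501). CDKB1;1 differed by -0.61 (SE 0.19, edgeR adjusted p = 0.0208) and was called under 10 of 14, losing its call with the trend over gene span removed and without H3.1 replicate 2, H3.1S28A replicate 2 or H3.3 replicate 1 (edgeR adjusted p up to 0.0779). The differences of CDKB2;1 at 0.42 (SE 0.16, edgeR adjusted p = 0.0528), CYCB1;1 at 0.44 (SE 0.27, edgeR adjusted p = 0.218) and CYCB1;4 at -0.15 (SE 0.22, edgeR adjusted p = 0.621) did not pass.

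**Figure D3:**
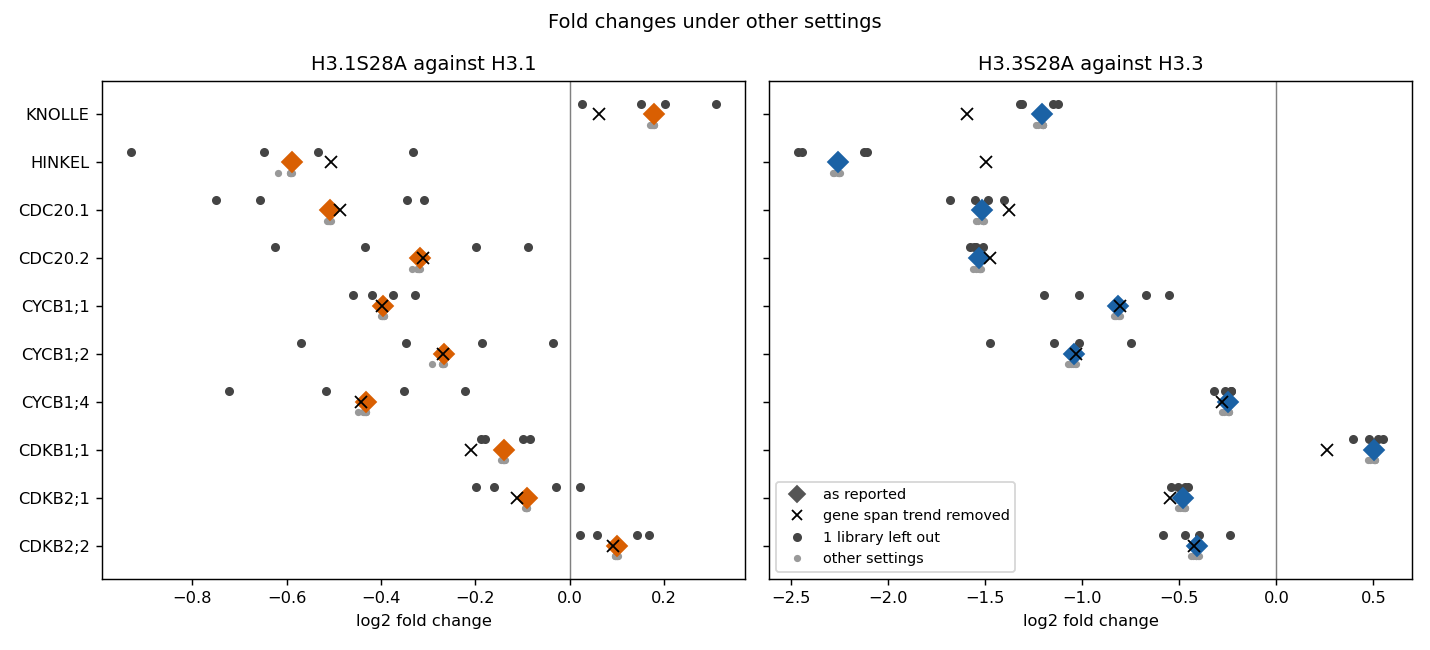
Log2 fold changes (x axis) of the 10 genes in each pair as reported (diamonds), with the trend over gene span removed (crosses), with 1 library left out (dark circles) and under the other settings (light dots). KNOLLE, HINKEL, CDC20.1 and CDC20.2 stay left of -1 in the H3.3 pair under every setting plotted, while the H3.1 values gather nearer 0.

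Levels in the 4 genotypes came from separate tables and are set side by side here as a description. Both H3.3S28A libraries lay below all 6 others for 8 of the 10 genes, as they did for 31.5% of the 20052 genes tested. HINKEL averaged 6.13 ± 0.956 CPM in H3.3S28A and 30.8 ± 5.05 CPM in H3.3, beside 36.6 ± 10.6 CPM in H3.1S28A and 55.6 ± 2.96 CPM in H3.1 (SD, n = 2 each), and its H3.1S28A libraries overlapped those of H3.3. KNOLLE averaged 25.7 ± 2.30 CPM in H3.3S28A and 61.6 ± 4.59 CPM in H3.3, beside 63.5 ± 9.03 CPM in H3.1S28A and 56.4 ± 1.22 CPM in H3.1 (SD, n = 2 each). Its H3.1S28A libraries overlapped those of H3.3 and of H3.1, which did not overlap each other. The exceptions were CYCB1;4, lowest in H3.1S28A at 11.1 ± 2.73 CPM and next in H3.3S28A at 13.2 ± 0.190 CPM, and CDKB1;1, highest in H3.3S28A at 15.7 ± 0.328 CPM and lowest in H3.1S28A at 10.1 ± 0.488 CPM (SD, n = 2 each). CDC20.1, CDC20.2, CYCB1;1, CYCB1;2, CDKB2;1 and HINKEL were highest in H3.1.

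The rest of the mitotic programme was read from a list of 47 other genes of mitosis and cytokinesis found in the files. In H3.3S28A, 27 fell, 5 rose and 15 did not pass, with a median log2 fold change of -0.93. Across all genes tested in this pair, 29.7% were lower and 28.8% higher. Before the trend over gene span was removed, the falls were deepest among kinesins that build or place the cell plate. KINESIN12A, a phragmoplast kinesin, had 0.869 and 0.389 CPM in H3.3S28A, from 17 and 5 counts, against 9.18 and 11.3 CPM in H3.3 (log2 fold change -3.87, SE 0.33). KINESIN12B, its close relative, had 3.27 and 3.11 CPM in H3.3S28A, against 23.3 and 26.9 CPM in H3.3 (log2 fold change -2.92, SE 0.16). Both were far below their controls, with no overlap. POK1 and POK2, kinesins that mark the plane of division, fell by 2.61 and 2.47 on the log2 scale. The spindle assembly factor TPX2 fell by 2.24, and the phragmoplast protein RUNKEL (RUK) fell by 1.72. The A-type cyclin CYCA2;3 fell by 1.61, and KEULE, which binds KNOLLE during vesicle fusion, fell by 1.30. AT1G63100 of the same list, which the RefSeq table names by locus alone, fell by 2.21. Log2 fold changes with the trend over gene span removed were -2.77 for KINESIN12A, -1.91 for KINESIN12B, -1.02 for POK1 and -0.71 for POK2. They were then -1.97 for AT1G63100, -1.63 for TPX2, -1.18 for CYCA2;3, -0.75 for RUK and -0.38 for KEULE. All of these were still called by edgeR, but AT1G63100 and TPX2 then lay lower than both POK genes.

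The 5 genes that rose in H3.3S28A were CKS1 (log2 fold change 0.75) and CKS2 (0.66), small proteins that dock on cyclin-dependent kinases, the kinase CDKB1;2 (0.59), the spindle checkpoint gene MAD2 (0.35) and the cyclin CYCA2;2 (0.95). They are named because they are few and were picked after their values were seen. CDKB1;2, the nearest relative of CDKB1;1, had 11.1 and 13.7 CPM in H3.3S28A, against 7.81 and 9.13 CPM in H3.3, so both B1 kinases were higher there while both B2 kinases were lower. With the trend over gene span removed, CYCA2;2 was the 1 of these 5 still called (log2 fold change 1.43), and the rises of both B1 kinases were no longer called. CKS1 and CKS2 are neighbours and close copies, and their separate values are uncertain for the reason given for the CDC20 genes.

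In H3.1S28A, 8 of the 47 fell, CKS1 (log2 fold change 0.81) and CKS2 (0.92) rose, and 37 did not pass, with a median of -0.24. Across all genes tested in this pair, 5.26% were lower and 8.23% higher. Leaving out 1 library moved the number called from 10 to between 5, without H3.1 replicate 2, and 18, without H3.1S28A replicate 2. Without H3.1 replicate 1 it was 6. The difference between the pairs was positive for 22 of the 47, and negative for CYCA2;2 (-1.32) and CDKB1;2 (-0.96). Over all genes tested it was positive for 24.4% and negative for 14.6%.

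Of 12 genes of DNA replication, which precede mitosis in S phase, 8 fell in H3.3S28A, TSO2 rose and 3 did not pass. Their median log2 fold change was -1.03, and across all genes tested 29.7% were lower and 28.8% higher. MCM4 and MCM6, subunits of the replicative helicase, fell by 1.52 and 1.31 on the log2 scale, and RNR1, the large subunit of ribonucleotide reductase, fell by 0.94. Removing the trend over gene span left log2 fold changes of -0.88 for MCM4, -0.66 for MCM6 and -0.26 for RNR1, all still called by edgeR. MCM7 was then no longer called, PCNA1 (-0.65) and PCNA2 (-0.50) were called lower and CDC6 (0.88) higher. These names were taken after their values were seen. TSO2, a small subunit of the same enzyme named after its value was seen, had 92.1 and 104 CPM in H3.3S28A, against 75.7 and 73.9 CPM in H3.3 (log2 fold change 0.44, SE 0.08), and was no longer called with the trend over gene span removed. In H3.1S28A, 0 of the 12 were called by edgeR or by DESeq2, and 0 reached p under 0.05 before adjustment. The median there was -0.09, and across all genes tested in that pair 5.26% were lower and 8.23% higher. Without H3.1S28A replicate 2, log2 fold changes were -0.46 for MCM7 and -0.59 for CDT1A, 2 names taken after their values were seen.

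**Figure D4:**
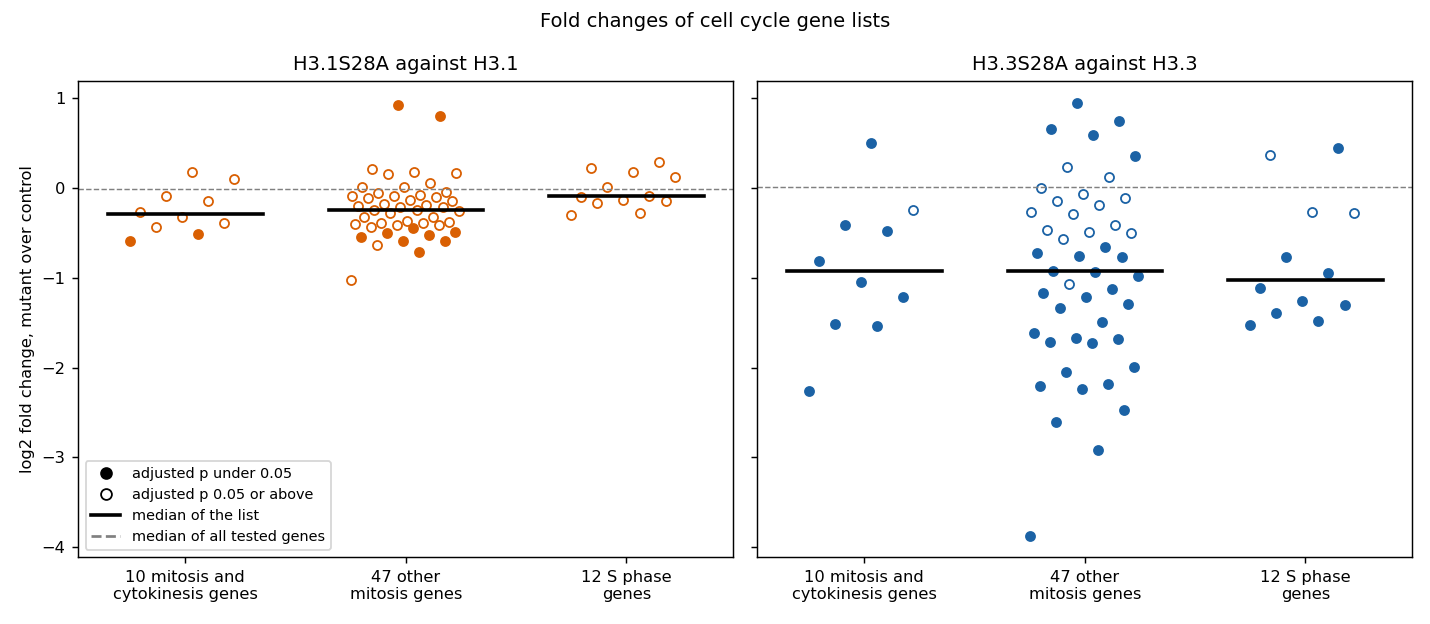
Log2 fold changes (y axis) of the 10 genes, 47 other mitosis genes and 12 S phase genes in each pair, with filled symbols for an adjusted p under 0.05, a solid line for the list's median and a dashed line for the median of all genes tested. In the H3.3 pair the medians of the 3 lists were -0.93, -0.93 and -1.03, and in the H3.1 pair they were -0.29, -0.24 and -0.09.

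Fold changes in these tables moved with gene span, the distance from start to end of a gene in the RefSeq TAIR10.1 annotation. Across genes, which are not independent replicates, Spearman's rho between span and log2 fold change was -0.52 in the H3.3 pair and -0.22 in the H3.1 pair. Genes were split by span into 4 bins of near-equal number, and in the H3.3 pair the median log2 fold change was 0.51 in the bin of the shortest genes, 0.16 and -0.13 in the middle bins and -0.66 in that of the longest. KNOLLE, with a span of 1.48 kb, lies in the shortest bin, where 6.74% of genes were lower in H3.3S28A. HINKEL, with 4.93 kb, lies in the longest, where 63.6% were lower. CDKB1;1, with 1.82 kb, lies in the second bin, where 34.4% were higher.

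With the trend over span removed from each library, KNOLLE had a log2 fold change of -1.59 in the H3.3 pair, HINKEL -1.498, CDC20.1 -1.38 and CDC20.2 -1.47, and all 4 remained lower at an adjusted p under 0.05 by edgeR. HINKEL was the gene moved most and KNOLLE was moved the other way. CDKB1;1 was no longer called, with a log2 fold change of 0.26 in the H3.3 pair (edgeR adjusted p = 0.121), and the other 5 genes kept their side of the threshold, with CDKB2;2 again at an edgeR adjusted p of 0.0499. Of the 47 other mitosis genes, 25 were lower in the H3.3 pair and CYCA2;2, CDKA;1 and MPK4 (named after their values were seen) higher. The median of the 47 was -0.57 in place of -0.93, and that of the 12 S phase genes -0.58 in place of -1.03. The share of all genes called in the H3.3 pair in this fit is not given here. The counts of called genes in that pair are therefore not set against a background. In the H3.1 pair HINKEL had -0.51 (edgeR adjusted p = 0.0488) and CDC20.1 -0.49 (edgeR adjusted p = 0.0563), so CDC20.1 was no longer called. Of the 18974 genes tested in that pair, 994 were then lower and 1267 higher. Over the whole table, the difference between the pairs was positive for 4896 genes and negative for 2933, and with the trend removed positive for 3385 and negative for 3356. Among the 10 genes, the difference between the pairs was then no longer called for CYCB1;2 (edgeR adjusted p = 0.0525), CDKB2;2 (edgeR adjusted p = 0.0646) and CDKB1;1 (edgeR adjusted p = 0.0684), and it was called for CDKB2;1 (edgeR adjusted p = 0.0496). Their median difference was 0.67, and 0.64 with the trend removed. What gives rise to the trend over span was not tested.

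**Figure D5:**
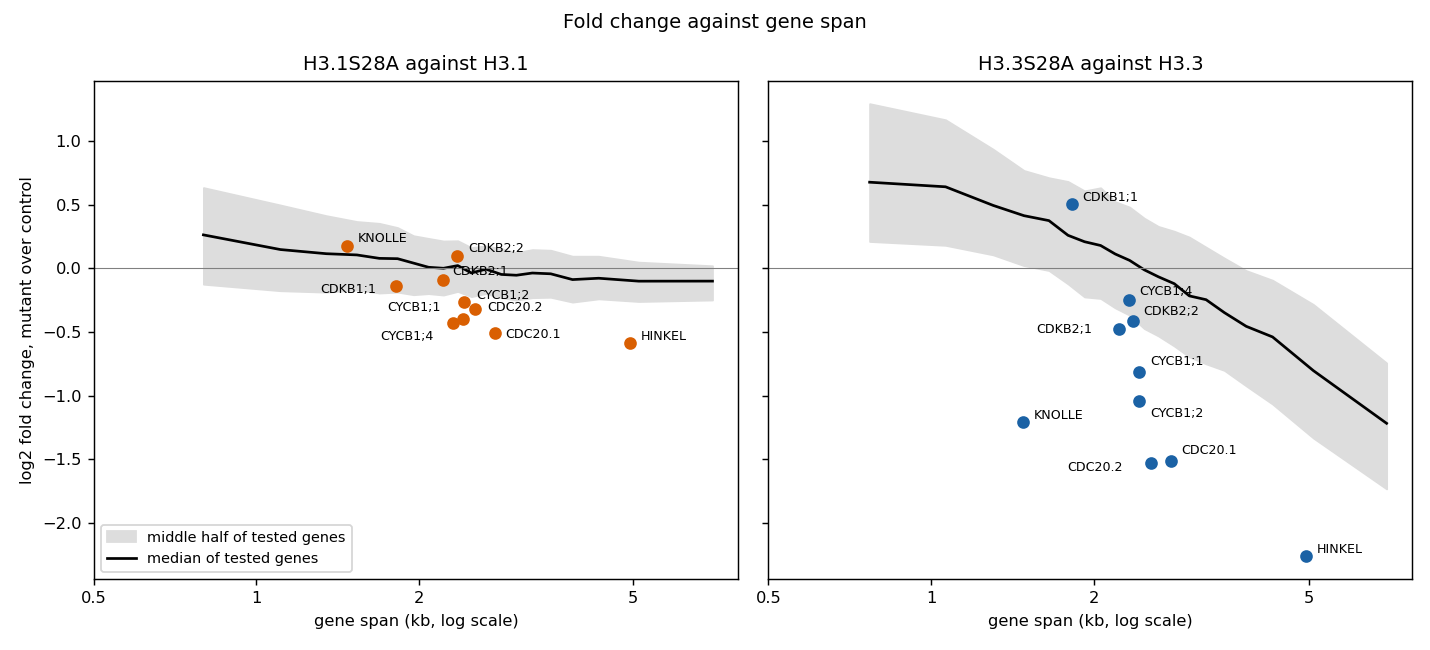
Log2 fold change (y axis) against gene span (x axis, kb, log scale) in each pair, with the line for the median of tested genes, the grey band for their interquartile range and points for the 10 genes. In the H3.3 pair the median falls with span. KNOLLE, CDC20.1, CDC20.2, HINKEL, CYCB1;1, CYCB1;2 and CDKB2;1 lie below the grey band, and CDKB2;2 lies close to its lower edge. Many other tested genes also lie below the band, because it holds only the interquartile range.

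Some of the 10 genes overlap another gene in the RefSeq annotation, and the strand setting of the counting is not given in the sources used here. NPQ1 overlaps KNOLLE and averaged 55.6 CPM in H3.3S28A and 85.8 CPM in H3.3 (log2 fold change -0.57, SE 0.08), a smaller fall than that of KNOLLE. AT3G54190 overlaps CDKB1;1 and averaged 24.4 CPM in H3.3S28A and 46.3 CPM in H3.3 (log2 fold change -0.88, SE 0.11), the opposite direction to the kinase gene. AT1G76530 overlaps CDKB2;1, averaged 6.62 CPM in H3.3S28A and 9.70 CPM in H3.3, and was not called (edgeR adjusted p = 0.0750). AT1G20925, which overlaps CDKB2;2, had too few counts to be tested. Reads of overlapping genes cannot be told apart here, and the values of these 4 genes carry that limit.

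Some lists of cell type markers also differed in the same comparisons. Across all genes tested, 29.7% were lower and 28.8% higher in the H3.3 pair, and 5.26% and 8.23% in the H3.1 pair. Summed over 6 floral organ genes (AP3, PI, AG, SEP3, SEP1 and AP1), levels were 184 and 175 CPM in H3.3S28A and 0.609 and 0.726 CPM in H3.3, and all 6 rose. AP3 had 0 counts in both H3.3 libraries. In the H3.1 pair the sum was 66.1 and 10.5 CPM in H3.1S28A and 2.65 and 2.59 CPM in H3.1, and AG, SEP3 and SEP1 rose among the 4 genes tested. Summed over 4 genes of growing leaf tissue (ANT, AN3, GRF1 and GRF2), levels were 75.3 and 83.4 CPM in H3.3S28A and 103 and 108 CPM in H3.3, and ANT and GRF2 fell. The same sum was 70.2 and 82.4 CPM in H3.1S28A and 125 and 123 CPM in H3.1, and all 4 fell.

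Of 5 stomatal lineage markers, SPCH alone fell in each pair. Their sums were 47.5 and 46.9 CPM in H3.3S28A and 47.2 and 53.0 CPM in H3.3, and 60.1 and 65.9 CPM in H3.1S28A and 78.8 and 81.9 CPM in H3.1. Of the shoot meristem markers, STM rose (log2 fold change 1.40) and KNAT1 fell (-0.63) in H3.3S28A, both fell in H3.1S28A, and CLV3 and WUS had 0 to 10 counts in every library. Summed over 4 root markers, levels were 10.8 and 9.11 CPM in H3.3S28A and 19.99 and 20.4 CPM in H3.3, and 9.03 and 9.96 CPM in H3.1S28A and 13.98 and 19.8 CPM in H3.1. PHO1, the 1 root marker with enough counts to be tested, fell in H3.3S28A (log2 fold change -0.98, SE 0.14) and in H3.1S28A (-0.82, SE 0.18). The root sums were nearly all PHO1. COBL9 had 0 to 3 counts and PRP3 0 to 5 counts per library, and the root hair gene EXPA7 had 0 counts in all 8 libraries. The sum of 4 mesophyll markers was 43888 to 54424 CPM. Among them RBCS3B rose in H3.3S28A (log2 fold change 0.50) and in H3.1S28A (0.40), and LHCB1.1 fell in H3.3S28A (-0.22). The other mesophyll values were not called. The part of tissue make-up in the levels of the 10 genes was not tested.

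Likeness to the 10 genes was measured as Pearson's r over the 8 libraries between a gene's log2 CPM and the mean of the 10 genes' standardised values, after the mean of each table had been taken off. Among 18225 genes with a mean of at least 1 CPM, the 6 outside the lists with the highest r were AT3G33530 and AT1G64430 (0.998 and 0.997), ARF1, an auxin response factor (0.997), TRM7 (0.997), AT2G45460 (0.996) and 3xHMG-box2, a chromatin protein known to bind mitotic chromosomes (0.996). Within the 10, HINKEL came closest to the common profile (0.994), followed by CDC20.1 (0.983), CDC20.2 (0.979), CYCB1;2 (0.954), CDKB2;1 (0.933), CYCB1;1 (0.917) and KNOLLE (0.902). CYCB1;4 and CDKB2;2 were looser (0.748 and 0.733), and CDKB1;1 ran against it (-0.756). Ranked among the 18225 genes, HINKEL was at 26, CDC20.1 at 165 and CDC20.2 at 240, while CYCB1;2 was at 1124, KNOLLE at 3032 and CDKB2;2 at 5776, so many genes outside the list were as near the profile as these members or nearer. Each of the 10 is itself part of the common profile, and all genes share the libraries and their depth, so these values are a description with no test.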

How the data were processed

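The authors deposited raw counts per gene in 2 tables, joined here by gene identifier. The build TAIR10 and the tools HISAT2, Subread and DESeq2 are named in the submitters' processing notes, while versions, annotation, strand setting and handling of multiply matching reads were not given in the sources used here. Columns were assigned by name, the last digit of the H3.1 columns being taken as the replicate. Each pair was tested within its table in R 4.3.3 with edgeR 4.0.16 (filterByExpr, TMM, glmQLFit, glmQLFTest), with Benjamini-Hochberg adjustment over all genes tested and a threshold of 0.05. SE is the size of the log2 fold change divided by the root of F. The scripts were tested on simulated counts. Alternatives were DESeq2 1.42.0, its size factors, no filter, a replicate block, organelle genes left out, a trend over gene span removed by lowess, 1 fit of all libraries, and each library left out. The 10 genes and the lists were chosen with earlier results of these data known. Named were all 10, up to 12 genes of the other lists by smallest adjusted p, and the 6 most alike, with other list genes named after their values were seen. Gene names and spans came from RefSeq TAIR10.1, which held 26719 of the 27416 genes. The 30 chromatin libraries were not analysed here.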

Additional observations from a re-analysis of the deposited data

Results flagged for a closer look

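For 7 of the 10 genes the change from control to mutant differed between the H3.1 pair and the H3.3 pair. The test was of the difference itself (log2 fold change of the H3.1 pair minus that of the H3.3 pair, edgeR, adjusted p under 0.05). Other differences between the plant lines of the pairs cannot be told apart here from a difference between the forms of H3. The difference was 1.41 for KNOLLE, 1.70 for HINKEL, 1.04 for CDC20.1, 1.24 for CDC20.2, 0.80 for CYCB1;2 and 0.54 for CDKB2;2, all lower in the H3.3 pair. It was -0.61 for CDKB1;1, higher in the H3.3 pair. Among all genes tested, 39% were called by the same rule, and the values of CYCB1;2, CDKB2;2 and CDKB1;1 lost their call under several settings. KNOLLE (0.18) and CDKB2;2 (0.10) had positive log2 fold changes in the H3.1 pair, not called, and fell in the H3.3 pair (-1.21 and -0.41). CDKB1;1 had log2 fold changes of -0.14 in the H3.1 pair, not called, and 0.50 in the H3.3 pair.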

How the results depend on the processing

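Of 360 values of single genes under the alternatives, 312 kept their direction and side of the threshold, 36 lost a call, 10 gained one and 2 reversed. With 1 library left out, CDKB2;1 ran between -0.20 and 0.022 in the H3.1 pair, above 0 without H3.1 replicate 2, and the difference between pairs for CYCB1;4 ran between -0.44 and 0.080, above 0 without H3.1S28A replicate 1. The number of the 10 genes called in H3.1S28A against H3.1 was 1 in place of 2 with the trend over gene span removed, and 0 to 5 with 1 library left out. In H3.3S28A against H3.3 it was 7 to 9 in place of 9 with 1 library left out, and for the difference between pairs 4 to 8 in place of 7. Over all genes, 1152 to 3480 were called in the H3.1 pair with 1 library left out, in place of 2560. Where leaving out a library left 1 in a genotype, that library was assumed to vary like those of the other genotype. Same-numbered libraries did not deviate together (r = -0.006 and 0.032 across 18225 genes), so the numbers were not taken as pairs. With the replicate block, 2, 9 and 7 of the 10 genes were called, the same numbers as without it, but in the difference between pairs CDKB2;2 lost its call (adjusted p = 0.0525) and CDKB2;1 gained one. The causes of these shifts were not tested. With 2 libraries per genotype, a difference that did not pass is not shown to be absent.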

Other observations

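Of 4 MYB3R regulators of mitotic genes, 3 fell in H3.3S28A, where 29.7% of all genes tested were lower. MYB3R4, an activator of genes expressed at mitosis, had 5.83 and 4.83 CPM in H3.3S28A, against 14.5 and 16.9 CPM in H3.3 (log2 fold change -1.50, SE 0.18). MYB3R1, which can activate or repress such genes, had 8.69 and 6.85 CPM in H3.3S28A, against 22.1 and 19.0 CPM in H3.3 (log2 fold change -1.34, SE 0.16). Both fell, with no overlap between the genotypes. The repressor MYB3R5 also fell (log2 fold change -2.05, SE 0.43), and MYB3R3 did not pass (-0.50, SE 0.26). MYB3R5 had low counts, 14 and 7 in H3.3S28A and 45 and 63 in H3.3. Removing the trend over gene span left MYB3R4 at -0.69 and MYB3R5 at -1.63, both still called by edgeR. MYB3R1 was then no longer called. In the H3.1 pair the edgeR adjusted p of the 4 ran between 0.155 for MYB3R4 (log2 fold change -0.28) and 0.579 for MYB3R1 (-0.11), and none passed. These 4 regulators were picked after their values were seen, and no factor's binding was measured here.

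Of 6 DNA damage response genes, 5 were tested. In H3.3S28A, BRCA1 (log2 fold change -1.11), PARP2 (-1.13) and GMI1 (-1.07) fell. SMR7, a kinase inhibitor of that response, rose on low counts, with 18 and 25 counts in H3.3S28A and 5 and 3 counts in H3.3 (log2 fold change 2.77, SE 0.68). In the H3.1 pair SMR7, with 18 and 18 counts in H3.1S28A and 8 and 10 counts in H3.1, had the lowest edgeR adjusted p of the 5, 0.134 (log2 fold change 1.27, SE 0.53). The genes named were chosen after their values were seen.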
